A study of Mus musculus with 36 samples.

Results

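The genes described here are 31 genes of the regulated secretory pathway: 19 neuropeptide precursors, 6 granins, the enzymes Pcsk1, Pcsk2, Cpe and Pam, the convertase inhibitor Pcsk1n, and Crhbp, which binds corticotropin-releasing hormone. They were chosen by symbol from a list of neuropeptide, granin and prohormone-processing genes, and all 31 were among the 24421 gene symbols measured. The data are RNA sequencing of polyadenylated RNA from mouse hippocampus, in 36 libraries of 6 groups with 3 females and 3 males each. In the aging arm the groups were young C57BL/6 mice of 8 months, old C57BL/6 mice of 18 months, and old mice of the same age given a nanoligomer. In the transgenic arm, at 4 months, they were non-carrier littermates, APP/PS1 mice, and APP/PS1 mice given a nanoligomer. Nanoligomers are synthetic nucleic-acid analogues made to bind the RNA or DNA of chosen genes, and the title of the series names NF-κB and NLRP3, both parts of inflammatory signalling. APP/PS1 mice carry human transgenes for the amyloid precursor protein and presenilin, and are a model of amyloid deposition. The sources used here give neither the line of the transgenes and the promoter that drives them nor the dose, duration and sequence of the treatment. No label says that the libraries came from separate mice, so the p-values measure the spread between these samples, part of which may be technical.

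Neuropeptides are made as long precursors that enter dense-core vesicles together with granins, acidic proteins that help these vesicles form and that are themselves cut into peptides. In the vesicle, the convertases encoded by Pcsk1 and Pcsk2 cut at pairs of basic residues, carboxypeptidase E (Cpe) trims the new ends, and the enzyme encoded by Pam adds the terminal amide that many peptides need to act. Pcsk1n encodes proSAAS, an inhibitor of the first convertase, and Scg5 encodes 7B2, a chaperone of the second. In the hippocampus, peptides such as somatostatin, neuropeptide Y, cholecystokinin and vasoactive intestinal peptide mark classes of GABAergic interneurons, while dynorphin is made by granule cells and vasopressin and oxytocin are made mainly by hypothalamic neurons whose axons reach many brain areas.

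Recovered reads numbered 27.6 to 46.3 M in 35 libraries and 0.913 M in treated APP/PS1 female 3, where 21 of the 31 genes had 0 reads. That library was left out, so the treated APP/PS1 group has 5 libraries here. The labelled tissue was checked against 17 markers of hippocampal neurons: Prox1 of granule cells lay at 8.44 to 70.8 CPM (recovered reads scaled to a total of 1000000 per library) over the 35 libraries, Fibcd1 of CA1 at 9.66 to 202, and their summed level over the 17 at 692 to 1801. The lowest sums were in treated old female 3 (692), APP/PS1 female 1 (749), young male 1 (784), old male 3 (798) and young male 2 (824).

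Several of those libraries stood apart in the peptide genes themselves. Against the median of the 35 libraries, APP/PS1 female 1 had 9 of the 31 genes at least 4-fold higher (CPM plus 0.1) and 4 at least 4-fold lower, young male 1 had 6 higher and 2 lower, and treated old female 3 had 6 higher and 1 lower. Vasopressin (Avp) was at 240.2 CPM in APP/PS1 female 1, 71.4 in young male 1 and 13.9 in treated old female 3, and at 0 to 5.84 in the other 32. Oxytocin (Oxt) was highest in the same 3 libraries, at 119, 65.2 and 20.8 CPM against 0 to 10.2. These are levels of genes that most libraries barely registered. Thyrotropin-releasing hormone (Trh) reached 63.2 CPM in APP/PS1 female 1, 47.2 in young male 1, 15.1 in APP/PS1 female 3 and 14.3 in treated old female 2, against 0.351 to 9.31 elsewhere. Cartpt, the precursor of the CART peptide, was at 33.9 CPM in APP/PS1 female 1 and 32.4 in young male 1, and Tac1, the substance P precursor, at 95.7 in APP/PS1 female 1 and 55.3 in treated old female 3. Interneuron peptides differed among themselves in APP/PS1 female 1. Cck was at 30.1 CPM against 150 to 411 in the other 34 libraries, and Cort, Vip, Grp and Crhbp were also at their lowest of all 35. Tac2 (23.8 CPM, median 4.83), Pnoc (23.96, median 10.8) and Crh (6.92, median 2.68) were high there, and Sst was at 248.5 CPM with a median of 283.

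Markers of neighbouring brain regions moved in the same libraries. The summed level of 20 hypothalamic markers was 299.7 CPM in young male 1 and 157 in APP/PS1 female 1, against 6.43 to 32.1 in the other 33. In both of those libraries 17 of the 20 were above 1 CPM and none was at 0, and the hypothalamic peptide precursors Hcrt and Pmch stood at 86.9 and 72.9 CPM in young male 1 and at 14.9 and 25.9 in APP/PS1 female 1, with no other library above 0.432 and 1.79. Treated old female 3 also had none of the 20 at 0, and 8 were above 1 CPM there. Its sum was 29.2 CPM, and its Pmch was the 1.79. The summed level of 14 striatal markers was 3632 CPM in treated old female 3, 3371 in APP/PS1 female 1, 2174 in young male 2, 1896 in treated APP/PS1 male 2 and 1089 in old male 3, against 436 to 847 in the other 30. Their part in the results was not tested. Values without these libraries are given beside only some of the results that move with them. In bulk tissue, fewer cells of a type and less RNA per cell cannot be told apart.

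**Figure D1:**
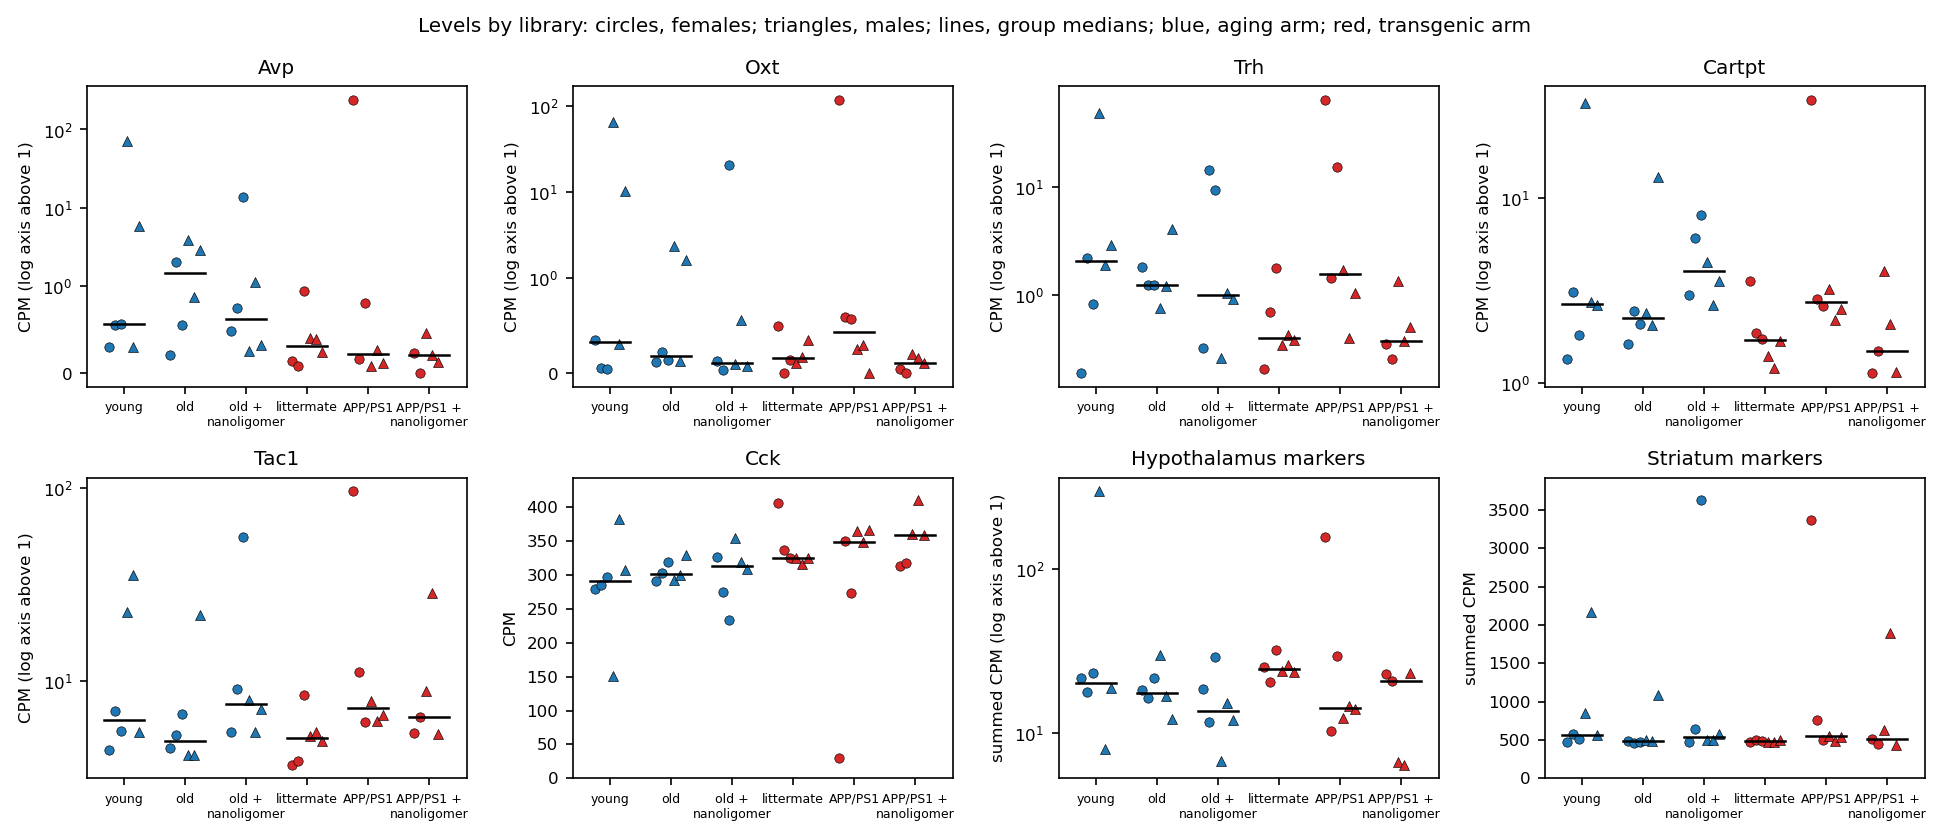
Levels of 6 peptide precursors in CPM, and summed CPM of 20 hypothalamic and 14 striatal markers, in each of 35 libraries by group (circles, females; triangles, males; lines, group medians; log axes above 1 where labelled). Avp and Oxt reach 240.2 and 119 CPM in APP/PS1 female 1, where Cck is lowest at 30.1 and the striatal sum is 3371.

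Per kilobase of exon, the levels of the different roles overlapped. Cpe, Pcsk1n and the granins were among the higher genes: the median over the 35 libraries was 759 CPM per kb for Cpe, 435 for Pcsk1n, 256 for Chgb, 114 for Scg3, 112 for Vgf, 91.9 for Scg5, 77.7 for Scg2 and 62.6 for Chga. The highest library exceeded the median 1.21-fold for Cpe, 1.32-fold for Pam and 1.34-fold for Scg3, but 2.35-fold for Scg5 and 3.51-fold for Scg2. Pcsk2 stood at 40.4 CPM per kb and Pcsk1 at 2.53, so the second convertase was the more abundant transcript in all 6 groups of libraries. Among interneuron peptides the order was Sst (393 CPM per kb), Cck (245), Npy (126), Cort (13.3), Vip (5.09), Pnoc (4.98), Tac2 (3.50) and Crh (2.03), where Vip and Pnoc differ by less than the spread between libraries. Crhbp was at 13.7 CPM per kb. The remaining precursors were Grp (10.9), Pdyn (4.43), Nmb (3.71), Nts (2.73), Adcyap1 (2.32), Cartpt (1.97), Tac1 (1.82), Trh (0.759), Avp (0.704), Oxt (0.320) and Gal (0.193). The interneuron peptides Sst, Cck and Npy ranked 3, 5 and 6 among the 31 genes, and Pcsk1 ranked 23. The highest library exceeded the median 6.43-fold for Tac2, 8.27-fold for Pdyn, 60.2-fold for Trh and 592-fold for Avp, but 1.53-fold for Grp and 1.498-fold for Nmb.

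**Figure D2:**
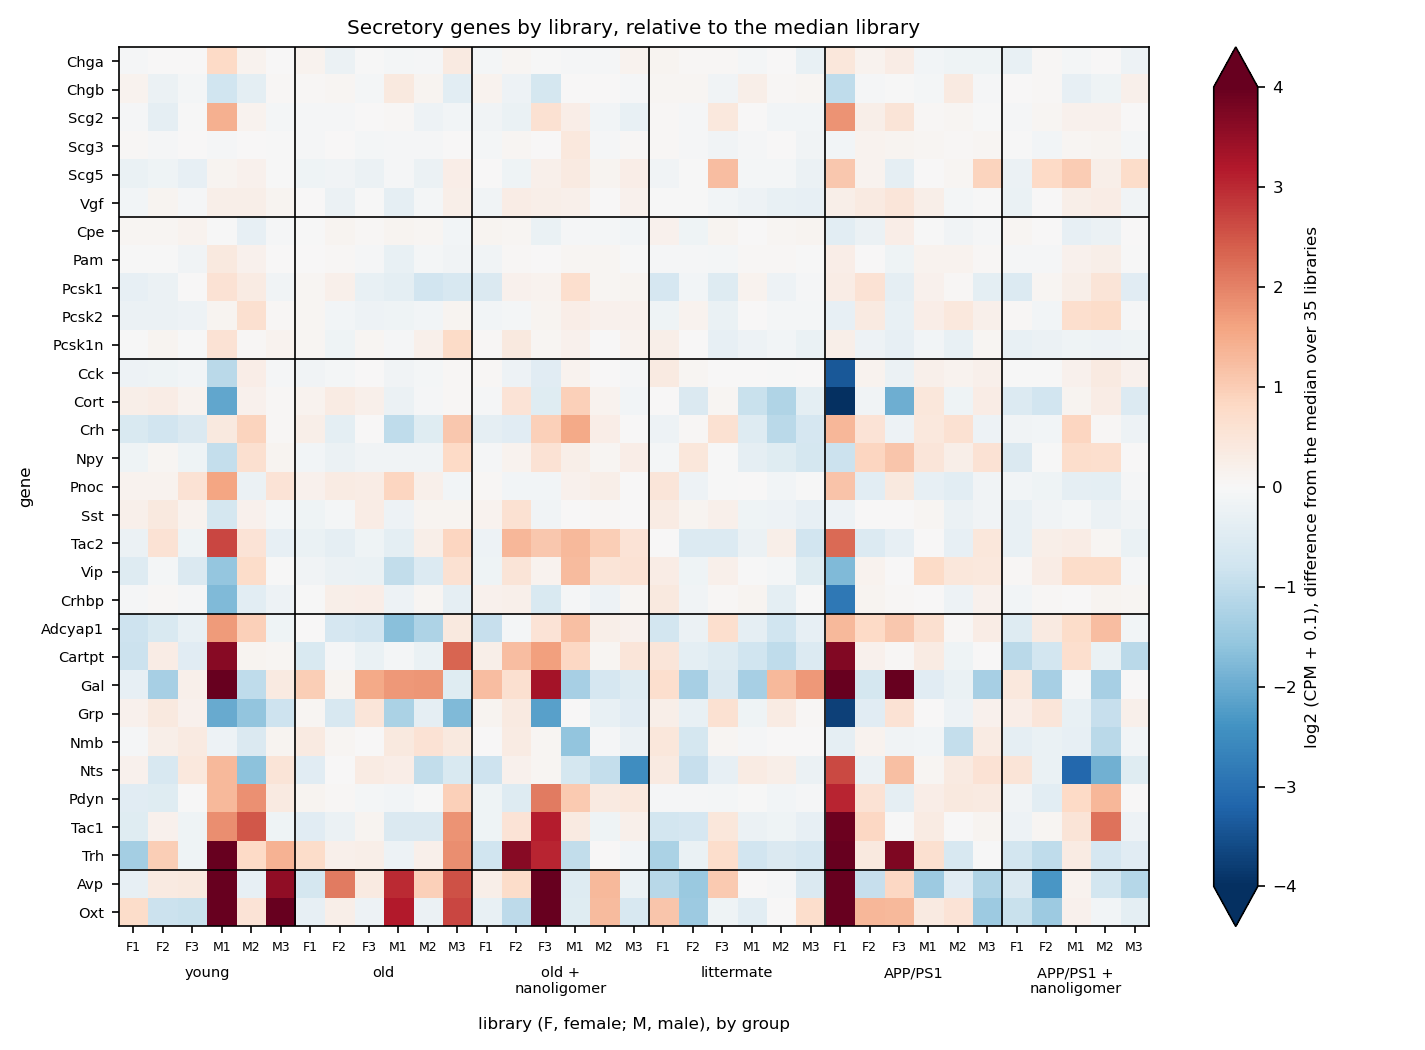
Each of the 31 genes (rows, grouped as granins, processing, interneuron peptides with Crhbp, other peptides, and Avp and Oxt) in each of 35 libraries (columns), as the difference in log2 of CPM plus 0.1 from the gene's median library. Strong colours stand in single columns such as APP/PS1 female 1 and young male 1, and most granin and processing rows are paler, apart from Scg2 in those columns and Scg5 in libraries such as littermate female 3.

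Many of these genes are textbook targets of CREB, the factor that binds the cyclic AMP response element, so the RefSeq promoter windows (build GRCm38.p6) were searched for it. A promoter entry was matched for 26 of the 31 genes, and Vgf, Crh, Cpe, Pnoc and Grp had none. The full element TGACGTCA, read on both strands, stood in the promoters of 5 of the 26 genes (5 of their 29 promoters) and in 1.79% of all 32851 promoters. The core TGACG, which lies within it, stood on either strand in 18 of the 26 genes (19 of their 29 promoters) and in 20.8% of all promoters. The windows searched were longer than those printed below and ran past the start: that of Adcyap1 spanned 93198767 to 93199066. The 5 promoters with the full element are given here, together with that of Adcyap1, which encodes the peptide PACAP and had one of the 2 smallest p-values in the APP/PS1 comparison. Each is 120 bases ending just before the RefSeq start, read 5′ to 3′ along the gene, with the full element or the core in capitals. Their positions are chr17:93198897-93199016 (plus strand) for Adcyap1, chr13:99900684-99900803 (minus) for Cartpt, chr16:23890845-23890964 (minus) for Sst, chr1:79440027-79440146 (minus) for Scg2, chr2:132781522-132781641 (plus) for Chgb and chr13:75089737-75089856 (plus) for Pcsk1.
Adcyap1: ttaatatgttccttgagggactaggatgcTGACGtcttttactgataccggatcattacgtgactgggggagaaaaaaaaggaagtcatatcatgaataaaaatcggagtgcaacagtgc
Cartpt: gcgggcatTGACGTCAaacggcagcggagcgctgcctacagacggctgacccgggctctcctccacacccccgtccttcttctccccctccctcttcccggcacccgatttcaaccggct
Sst: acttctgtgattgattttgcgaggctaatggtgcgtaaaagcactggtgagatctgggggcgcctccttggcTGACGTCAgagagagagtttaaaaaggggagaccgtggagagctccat
Scg2: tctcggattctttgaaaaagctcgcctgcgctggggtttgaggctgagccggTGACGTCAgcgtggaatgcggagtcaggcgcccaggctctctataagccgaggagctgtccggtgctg
Chgb: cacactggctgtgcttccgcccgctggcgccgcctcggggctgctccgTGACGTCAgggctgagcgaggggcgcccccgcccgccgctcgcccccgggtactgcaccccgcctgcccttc
Pcsk1: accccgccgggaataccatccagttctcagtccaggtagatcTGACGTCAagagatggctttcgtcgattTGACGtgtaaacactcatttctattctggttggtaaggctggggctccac
The full element begins 48 bases before the RefSeq start in Sst, 68 in Scg2, 72 in Chgb, 78 in Pcsk1 and 112 in Cartpt. GENCODE M21 places some starts elsewhere: its Cartpt gene spans 99898489 to 99901091 and its Chgb gene 132781278 to 132795079. Both of these windows therefore lie inside the GENCODE gene, and those of Sst, Scg2 and Pcsk1 lie partly inside theirs. The match is of letters only. The 5 genes did not share a level: their medians ran from 1.97 CPM per kb for Cartpt to 393 for Sst.

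APP/PS1 mice were compared with their non-carrier littermates, which asks what the transgenes change at 4 months. The clearest differences were higher levels of Vgf, the granin induced by neuronal activity and neurotrophins, and of Adcyap1, but neither passed the test across all genes. Vgf (chromosome 5, 137026392 to 137033351, plus strand) was 1.30-fold and Adcyap1 (chromosome 17, 93199017 to 93206537, plus strand) 2.02-fold higher in APP/PS1 libraries, with both loci from GENCODE M21 on GRCm38. Trh and Crh, the stress-axis releasing hormone made by some hippocampal interneurons, followed, and Npy was higher in 4 of 6 APP/PS1 libraries than in any littermate.

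Vgf lay at 9748, 11000.0 and 12288 normalized counts in littermates (lowest, median and highest of 6 libraries, also below) and at 11959.9, 14226 and 16752 in APP/PS1. The groups overlapped in 1 library: 5 of 6 APP/PS1 libraries were above the highest littermate, and APP/PS1 male 2 was not. The log2 fold change, on the scale of log2(normalized count + 1) as throughout, was 0.38 ± 0.071 (standard error, n = 6 and 6), with an adjusted p of 0.119 by limma with Benjamini-Hochberg adjustment over all genes tested. Adcyap1 lay at 181, 251 and 506 in littermates and at 346, 543 and 753 in APP/PS1, with 4 of 6 APP/PS1 libraries above the highest littermate. Its log2 fold change was 1.01 ± 0.21 (limma adjusted p = 0.162). Trh lay at 13.7, 23.6 and 64.7 in littermates and at 24.4, 58.3 and 2173 in APP/PS1. Only APP/PS1 female 1 and female 3 were above the highest littermate for Trh, so its log2 fold change of 2.21 ± 0.81 (limma adjusted p = 0.373) rested on those libraries and was 1.505 without female 1 and 0.76 without both. Crh lay at 43.98, 74.996 and 151 in littermates and at 83.4, 141 and 238 in APP/PS1, with 2 of 6 APP/PS1 libraries above the highest littermate and a log2 fold change of 0.74 ± 0.28 (limma adjusted p = 0.391).

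None of the 31 genes passed an adjusted p under 0.05, where 0.0486% of the 16475 genes tested did, and for none of the 31 did the groups lie apart, where that held for 0.85% of genes. At an unadjusted p under 0.05 there were 6 of 31, all higher in APP/PS1: Vgf, Adcyap1, Trh, Crh, Cartpt and Tac1. That is 19.4% of the genes, against 4.72% of all genes higher and 10.2% in either direction. For Cartpt only APP/PS1 female 1 and for Tac1 only 2 of 6 libraries, female 1 among them, were above the highest littermate, and the estimates of 1.18 ± 0.51 and 1.17 ± 0.54 were 0.62 ± 0.24 and 0.58 ± 0.23 without female 1. The estimate was above 0 for 23 of 31 (50.3% of all genes), with a median of 0.20 against 0.00 over all genes. That median was 0.35 without APP/PS1 female 3, 0.18 without female 1 and 0.18 without both. By role, 5 of 6 granins had an estimate above 0 (median 0.16), 3 of 4 processing enzymes (median 0.15), 5 of 8 interneuron peptides (median 0.03) and 7 of the other 9 peptides (median 1.01). DESeq2 had 10 of the 28 genes it tested at an unadjusted p under 0.05 (11.3% of all genes) and called 2, against 1.56% of all genes: Vgf (0.38 ± 0.077, adjusted p = 0.000451) and Adcyap1 (0.96 ± 0.21, adjusted p = 0.00299). The fit of limma with library weights called 3 of 31, against 3.33% of all genes, namely those and Npy (0.85 ± 0.16, limma adjusted p = 0.0122). By edgeR 0 of 31 were called, against 0.0486% of all genes, and 12 were at an unadjusted p under 0.05, against 10.1%. Sst had an estimate of -0.05 ± 0.10 with a 95% interval of -0.27 to 0.16, and Pcsk1n of 0.01 ± 0.11 with an interval of -0.23 to 0.25.

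Leaving out APP/PS1 female 1 changed the calls. Npy, the interneuron peptide that damps excitation, was lowest of all 12 libraries in female 1 and highest in APP/PS1 female 3: it lay at 1613, 2213 and 3604 in littermates and at 1337, 3859.7 and 5544 in APP/PS1, with an estimate over all libraries of 0.61 ± 0.30 (limma adjusted p = 0.518). Without APP/PS1 female 1, Npy was 0.94 ± 0.11 (limma adjusted p = 0.00216) and Vgf 0.41 ± 0.065 (limma adjusted p = 0.0239), so that 2 of 30 genes passed the test, against 0.128% of all genes. At an unadjusted p under 0.05 there were then 12 of 30, all higher, against 11.8% of all genes in either direction. Without female 3 alone, only Vgf passed among the 31 genes (0.35 ± 0.073, limma adjusted p = 0.0387), against 1.56% of all genes. Without both libraries 5 of 29 passed, against 5.53% of all genes: Npy, Vgf, the dynorphin precursor Pdyn (0.52 ± 0.094), Pcsk2 (0.43 ± 0.083) and Adcyap1 (0.90 ± 0.23, limma adjusted p = 0.0364). Leaving out both was chosen after the data were seen, and Npy, Pdyn and Pcsk2 are named for it after their values were seen. Some estimates turned: Avp went from 1.30 to -0.32 without female 1, Cck from -0.57 to 0.03 and Cort from -0.53 to 0.19.

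**Figure D3:**
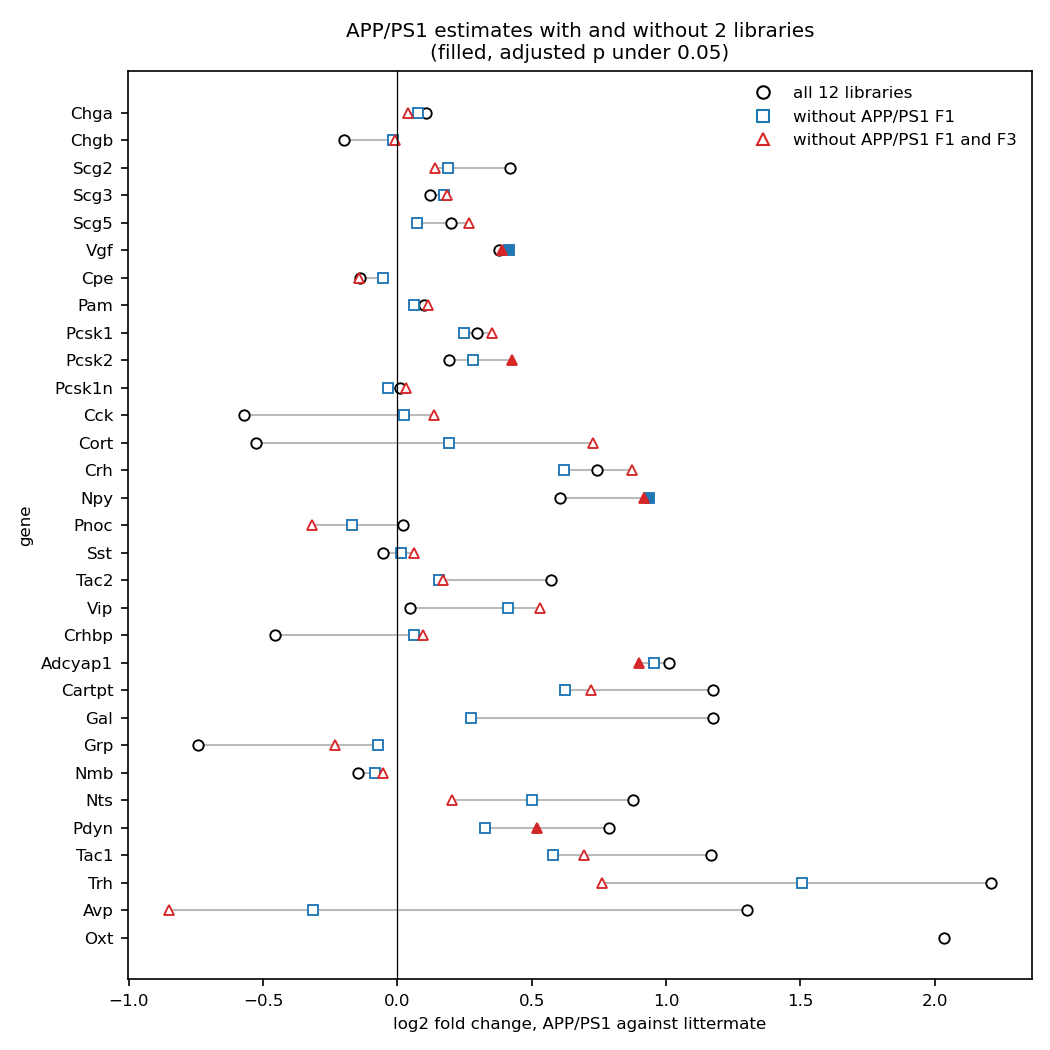
Log2 fold change of each gene in APP/PS1 against littermate libraries, with all 12 libraries (circles), without APP/PS1 female 1 (squares) and without APP/PS1 female 1 and female 3 (triangles); filled symbols have an adjusted p under 0.05, and a missing symbol marks a gene below the expression minimum. Vgf and Adcyap1 move little (0.38 to 0.41 and 0.90 to 1.01), while Trh, Avp, Cck and Cort shift by more than 0.5.

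Genes around this pathway were counted from lists. Of 36 receptors for neuropeptides, 19 had an estimate above 0 (median 0.08) and none passed. The smallest p-values were those of the kappa opioid receptor Oprk1, the receptor for dynorphin (1.60 ± 0.46, limma adjusted p = 0.244), and of the Trh receptor Trhr2 (1.23 ± 0.38). Of 24 other dense-core vesicle and processing genes, 13 had an estimate above 0 (median 0.00), with Ptprn, a vesicle membrane protein, at 0.25 ± 0.061 (limma adjusted p = 0.196) and Syt4 at 0.28 ± 0.087. Of 14 peptidases that degrade peptides, 8 were above 0, with the endothelin-converting enzyme Ece1 at 0.37 ± 0.081 (limma adjusted p = 0.182). Among 21 further peptide precursors, 11 were above 0 (median 0.07), with Penk, the enkephalin precursor, at 1.80 ± 0.46 and Igf2 at -1.06 ± 0.22 (limma adjusted p = 0.162). Penk was at 750 CPM in APP/PS1 female 1 and 162 in female 3. It was at 32.3 to 101 CPM in the other APP/PS1 libraries and at 20.6 to 52.0 in littermates. Of 29 activity-induced genes, such as Npas4, only 5 had an estimate above 0 (median -0.34), and none passed.

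Marker lists of other cells moved alongside. All 14 striatal markers had an estimate above 0 (median 0.97), with summed levels of 469.5 to 494 CPM in littermates and 491 to 3371 in APP/PS1 (group medians 485 and 551). Estimates were above 0 for 13 of 15 hypothalamic markers (median 0.88), but their summed level (20.7 to 32.1 and 10.3 to 157 CPM) had a lower group median in APP/PS1 (14.3 against 24.6), with 4 of 6 APP/PS1 libraries below the lowest littermate and female 1 highest. Only 2 of 17 hippocampal neuron markers were above 0 (median -0.63; sums 1319 to 1674 and 749 to 1459.7) and 0 of 14 choroid plexus markers (median -0.97). Neocortical markers were above 0 in 10 of 18 (median 0.06), with sums of 931 to 1170 CPM in littermates and 880 to 1487 in APP/PS1. In 4 of 6 APP/PS1 libraries this sum exceeded the highest littermate, while female 1 and female 3 were at 951 and 880 CPM. No fit used a neocortical score. Of 24 GABAergic interneuron markers, 16 were above 0 (median 0.09), with sums of 1760.2 to 2136 and 1833 to 3548 CPM, the highest again in APP/PS1 female 1. Their part in the estimates was not tested beyond covariate fits: with the hippocampal marker score in the fit, Npy was 1.38 ± 0.20 (limma adjusted p = 0.0247) and the only one of the 31 to pass, against 0.0546% of all genes, and with the hypothalamic score, Npy (0.87 ± 0.14) and Vgf (0.40 ± 0.067) passed, against 0.146% of all genes. Both of these scores were chosen after the data were seen. The median of the 31 estimates was 0.07 with the hippocampal and 0.23 with the hypothalamic score, with 18 and 22 of 31 above 0. With the GABAergic score none of the 31 passed, against 0.115% of all genes, and with the choroid plexus, striatum and thalamus scores together none passed, against 0.0182%. With those 3 scores, 3 of 31 had an unadjusted p under 0.05, against 5.2% of all genes, and the median of the 31 estimates was 0.08.

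**Figure D4:**
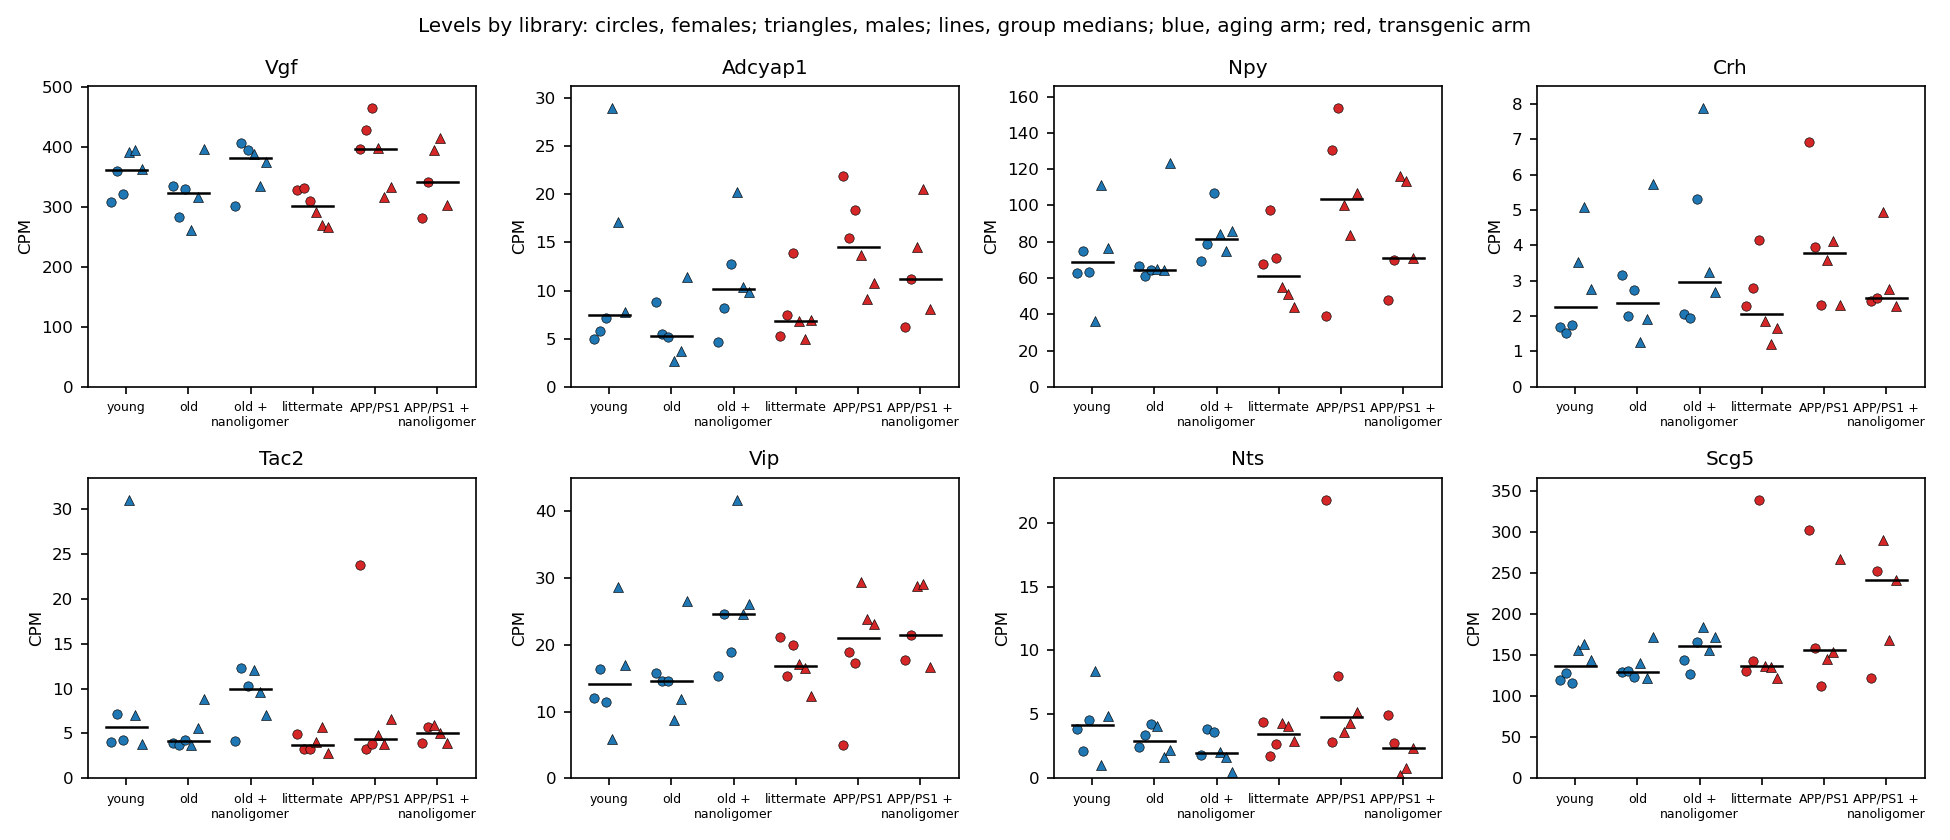
Levels in CPM of 8 of the genes in each of 35 libraries by group (circles, females; triangles, males; lines, group medians). Vgf in APP/PS1 lies above the highest littermate in 5 of 6 libraries, Npy is lowest within the APP/PS1 group in female 1, and Scg5 has 6 libraries of the transgenic arm at 242 to 339 CPM.

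Old mice given the nanoligomer were compared with untreated old mice. The genes with the smallest p-values were all higher with treatment: Tac2, the neurokinin B precursor of some hippocampal interneurons (1.81-fold), Vip, which marks interneurons that inhibit other interneurons (1.65-fold), and Scg5 (1.16-fold). None passed the test across all genes, and every pair of groups overlapped.

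Tac2 lay at 137, 156 and 336 normalized counts in untreated and at 158, 369 and 464 in treated old libraries, and 4 of 6 treated libraries exceeded the highest untreated library, old male 3. Its log2 fold change was 0.86 ± 0.27 (limma adjusted p = 0.678, n = 6 and 6). Vip lay at 327, 547 and 1009 untreated and at 577, 932 and 1580.2 treated. Only treated male 1 exceeded old male 3 for Vip, and the log2 fold change was 0.72 ± 0.25 (limma adjusted p = 0.678). Scg5 lay at 4678, 4857 and 6526 untreated and at 4831, 5974 and 6988 treated, with 2 of 6 treated libraries above the highest untreated one and a log2 fold change of 0.22 ± 0.083 (limma adjusted p = 0.678). For all of these, the highest untreated library was old male 3.

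No member of the 31 was called, nor was any of the 16517 genes tested (0%), and the groups lay apart for none of the 31 against 0.254% of genes. At an unadjusted p under 0.05 there were 4 of 31, the 3 above and Adcyap1 (0.85 ± 0.38), all higher, where 3.62% of all genes were higher and 7.22% in either direction. DESeq2 called none of the 30 genes it tested, against 0.0122% of all genes, and edgeR none of 31, against 0%. At an unadjusted p under 0.05 they had 4 and 3, against 8.02% and 7.17% of all genes. The estimate was above 0 for 19 of 31 (49% of all genes; median 0.10 against -0.00): 4 of 6 granins, 3 of 4 processing enzymes, 6 of 8 interneuron peptides and 6 of the other 9. Nmb (-0.56 ± 0.28), Pnoc (-0.26 ± 0.14) and Nts (-0.58 ± 0.36) had estimates below 0. The 95% intervals of Cck and Pcsk1n ran from -0.22 to 0.16 and from -0.30 to 0.27.

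Without old male 3, which had the highest striatal sum of its group, 11 of 31 genes had an unadjusted p under 0.05, against 13.3% of all genes. Of these, 9 were higher with treatment (Tac2 1.02 ± 0.25, Vip 0.89 ± 0.23, Scg5 0.27 ± 0.074, Npy 0.36 ± 0.090, Cartpt 1.04 ± 0.27, and Adcyap1, Pcsk2, Tac1 and Vgf) and 2 were lower (Chgb and Pnoc). None passed, the smallest adjusted p being 0.245 by limma. Without treated female 3 and old male 3, a pair chosen after the data were seen, there were 9 of 31, against 12.3% of all genes. Without treated male 1 there were 2, against 5.12%.

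Among the lists, 16 of 34 receptors had an estimate above 0 (median -0.03), with the delta opioid receptor Oprd1 at 0.49 ± 0.17 and the neurotensin receptor Ntsr2 at -0.16 ± 0.066 (limma adjusted p = 0.678 for both). Of 24 vesicle and processing genes 8 were above 0 (median -0.01), with Resp18 at 0.39 ± 0.14. Of 14 peptidases 9 were above 0 (median 0.04) and of 18 further precursors 9 (median -0.00). Of 29 activity-induced genes 19 were above 0 (median 0.18), with Inhba at 0.86 ± 0.26. Hippocampal neuron markers were lower in treated libraries for 16 of 17 (median -0.53; sums 798 to 1801 CPM untreated and 692 to 1559 treated), and 14 of 18 neocortical markers (median 0.28; sums 745 to 1307 and 923 to 1509 CPM) and 10 of 14 striatal markers (median 0.33) were above 0. Their part in the results was not tested beyond covariate fits. With the hippocampal score, chosen after the data were seen, Vip was 0.49 and Scg5 0.14. The median of the 31 estimates was then 0.02, and 1 of 31 had an unadjusted p under 0.05, against 6.44% of all genes. Under the choroid plexus, striatum and thalamus scores together that median was 0.12. There 7 of 31 reached this threshold, 6 of them higher, as did 1713 of 16517 genes. For the GABAergic score the median was 0.11, with 4 of 31 and 1301 of 16517 genes.

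**Figure D5:**
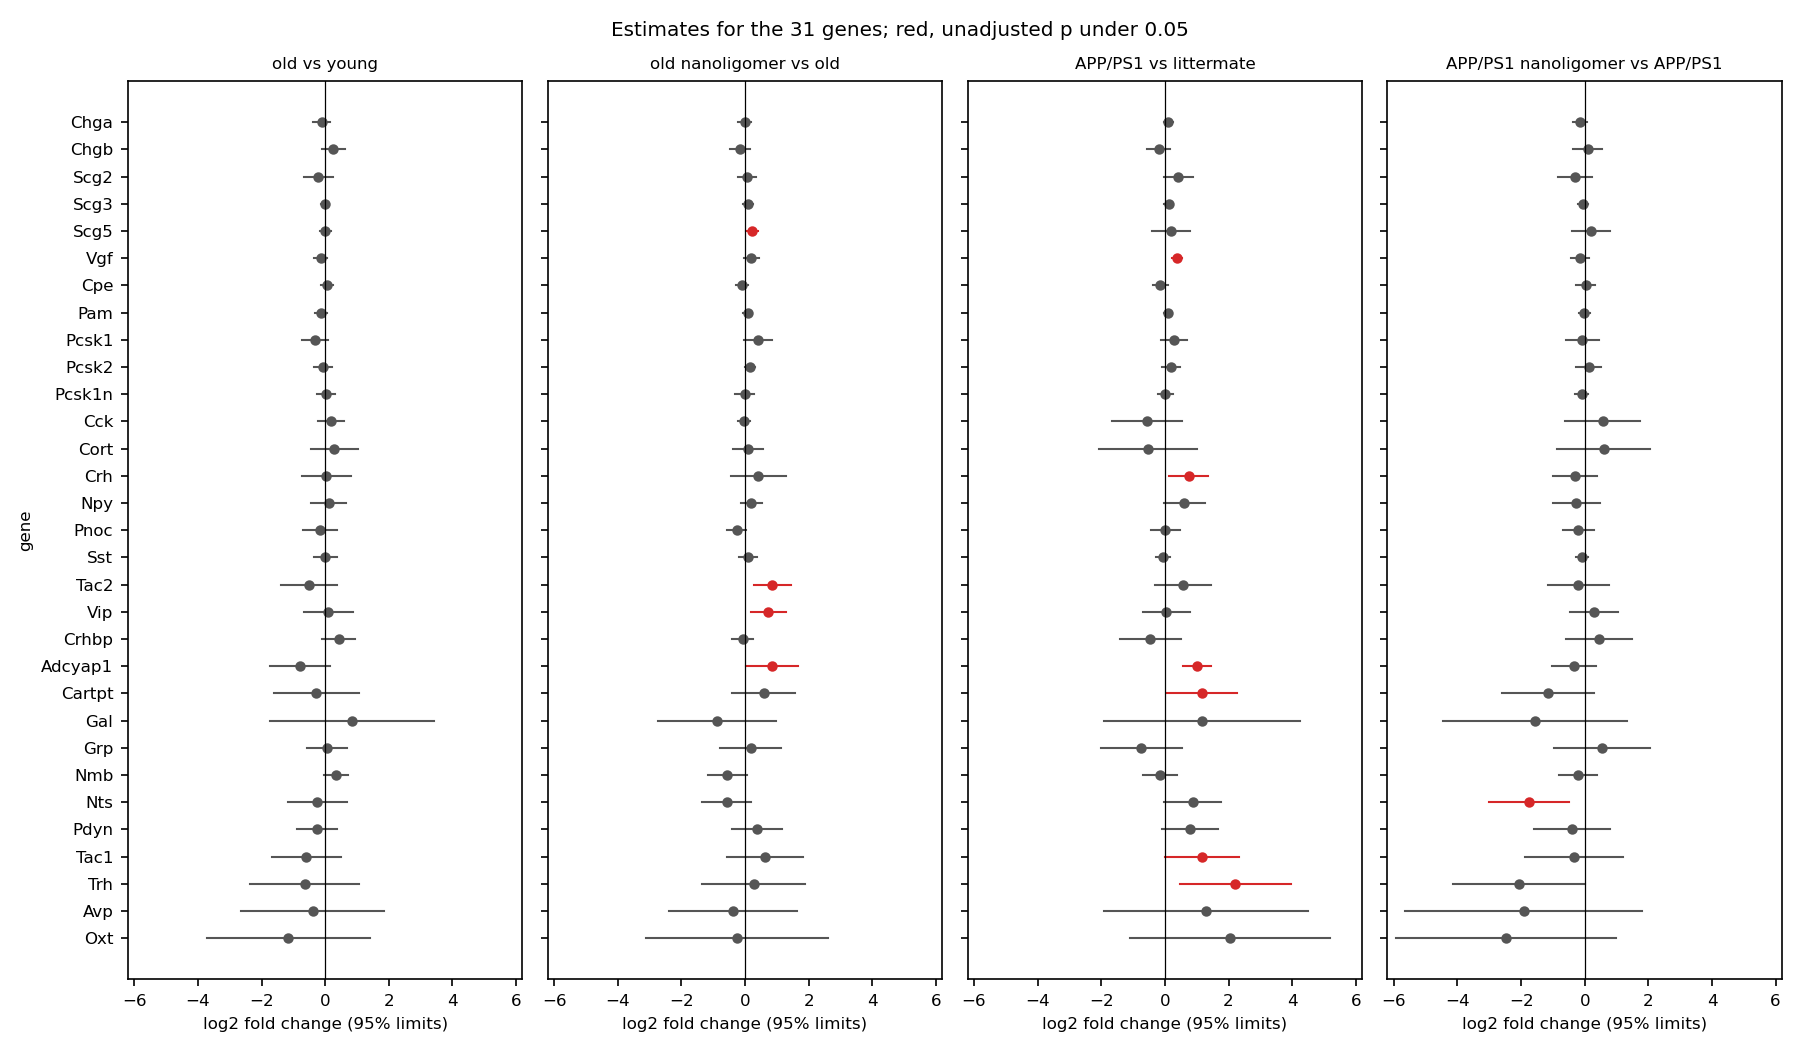
Log2 fold change with 95% limits for each of the 31 genes in the 4 comparisons (points, estimates; red, unadjusted p under 0.05; none of the 31 has an adjusted p under 0.05). Limits are narrow for granins and processing enzymes and wide for Gal, Trh, Avp and Oxt, and the red points are 0, 4, 6 and 1 in number from left to right.

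No gene of the 31 passed the test between old and young mice, which asks what changes from 8 to 18 months. The 3 smallest p-values belonged to Nmb, the neuromedin B precursor (1.27-fold higher in old), Adcyap1 (0.58 of the young level) and Crhbp (1.34-fold higher). Nmb lay at 81.1, 121 and 152 normalized counts in young and at 119.9, 155 and 182 in old libraries, with 4 of 6 old libraries above the highest young one and a log2 fold change of 0.35 ± 0.18 (limma adjusted p = 0.851, n = 6 and 6). Adcyap1 lay at 201, 302 and 1089 in young and at 108, 213 and 462 in old. The highest young value was that of young male 1, and the estimate of -0.79 ± 0.43 (limma adjusted p = 0.851) was -0.51 without it. Crhbp lay at 270.4, 916 and 1011 in young and at 785, 1035 and 1203 in old, where the lowest young value was again that of young male 1, and its estimate of 0.43 ± 0.24 was 0.16 without that library.

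None of the 31 was called, against 0.0361% of 16626 genes, none was at an unadjusted p under 0.05, against 6.13%, and the groups lay apart for none, against 0.505%. DESeq2 called 0 of the 28 it tested, against 0.742% of all genes, and edgeR 0 of 31, against 0.0361%. At an unadjusted p under 0.05 they had 0 and 1, against 7.3% and 6.6% of all genes. The estimate was above 0 for 13 of 31 (48.6% of all genes; median -0.07 against -0.00). The median was -0.13 without old female 1 and between -0.04 and -0.01 without old male 1, old male 2, young male 1 or young male 2. Granins were above 0 in 1 of 6, with Chgb at 0.26 ± 0.17, processing enzymes in 1 of 4, interneuron peptides in 6 of 8 and the other peptides in 3 of 9. Several intervals were tight around 0: Scg3 had 95% limits of -0.12 to 0.11, Scg5 of -0.17 to 0.17 and Cpe of -0.12 to 0.25. Avp (-0.39 ± 1.04) and Oxt (-1.16 ± 1.18) could not be resolved. Without young males 1 and 2 and old male 3, a set chosen after the data were seen, the galanin precursor Gal was the only gene of the 31 at an unadjusted p under 0.05 (1.96 ± 0.68, limma adjusted p = 0.664), against 6.11% of all genes.

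The called gene nearest this pathway was Ide, the insulin-degrading enzyme, which also cuts small peptides. It was at 2093 ± 102 normalized counts (SD, n = 6) in young and 4127 ± 118 in old libraries, a log2 fold change of 0.98 ± 0.047 (limma adjusted p = 9.45e-07), and it was the only called gene of 14 peptidases, of which 4 had an estimate above 0 (median -0.12). Whether age or another difference between the 2 groups of mice set the level of Ide was not tested. Of 36 receptors 11 were above 0 (median -0.18), with the complement receptor C3ar1, which also binds a Vgf-derived peptide, at 0.77 ± 0.17 (limma adjusted p = 0.24) and Npy1r at 0.31 ± 0.12. Vesicle and processing genes were above 0 in 8 of 24 (median -0.05), further precursors in 8 of 22 (median -0.22) and activity-induced genes in 22 of 29 (median 0.30). Beside these, hippocampal neuron markers were above 0 in 16 of 17 (median 0.40; sums 784 to 1666 CPM young and 798 to 1801 old), striatal markers in 0 of 14 (median -0.53; sums 473 to 2174 and 457 to 1089) and choroid plexus markers in 0 of 15 (median -1.99; sums 21.1 to 4359 and 38.2 to 279). Their part in the result was not tested.

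APP/PS1 mice given the nanoligomer were compared with untreated APP/PS1 mice, with 5 treated libraries. The smallest p-values belonged to Nts, the neurotensin precursor, Trh and Cartpt, all with lower levels in treated libraries, and none passed the test. Nts was at 4.93, 2.79, 0.297, 0.8197 and 2.41 CPM in treated females 1 and 2 and males 1, 2 and 3, and at 2.87, 4.77 and 21.8 (lowest, median, highest) in the 6 untreated libraries. On the normalized counts 4 of 5 treated libraries were below the lowest untreated one, with a log2 fold change of -1.75 ± 0.57 (limma adjusted p = 0.997), which was -1.53 without APP/PS1 female 1. Trh was at 0.5901, 0.471, 1.35, 0.615 and 0.738 CPM in the same order, against 0.644, 1.56 and 63.2 untreated. Here 3 of 5 were below the lowest untreated normalized count, and the estimate of -2.06 ± 0.95 was -0.63 without APP/PS1 female 1 and female 3, where 1 of 28 genes remained at an unadjusted p under 0.05 (2.63% of all genes). Cartpt was at 1.13, 1.49, 4.04, 2.07 and 1.15 CPM against 2.201, 2.73 and 33.9 untreated, and its estimate of -1.15 ± 0.66 was -0.59 without APP/PS1 female 1.

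No gene of the 31 and none of the 16124 tested was called (0%), the groups lay apart for none of the 31 against 0.31% of genes, and Nts alone was at an unadjusted p under 0.05, against 2.96% of all genes, 1.51% being lower with treatment. DESeq2 called none of the 27 genes it tested, against 0.0436% of all genes, and edgeR none of 31, against 0%. At an unadjusted p under 0.05 they had 2 and 1, against 3.63% and 2.92% of all genes. The estimate was above 0 for 9 of 31 (49.4% of all genes; median -0.15 against -0.00): 2 of 6 granins, 2 of 4 processing enzymes, 3 of 8 interneuron peptides and 1 of the other 9. That median was -0.07 without APP/PS1 female 1 and -0.05 without treated female 1, and with the choroid plexus, striatum and thalamus scores in the fit it was 0.00, with 16 of 31 above 0. Sst was the tightest of the interneuron peptides, at -0.09 ± 0.081. This comparison shares its APP/PS1 libraries with the one against littermates, so high values there enter both. In the 2 comparisons, in that order, Vgf was 0.38 against littermates and -0.15 with treatment, Adcyap1 1.01 and -0.33, and Npy 0.61 and -0.27. Likewise the old libraries enter both comparisons of the aging arm, where Adcyap1 was -0.79 with age and 0.85 with treatment and Nmb 0.35 and -0.56.

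Receptors were above 0 in 19 of 35 (median 0.05), vesicle and processing genes in 14 of 24 (median 0.02), peptidases in 7 of 14, further precursors in 7 of 20 (median -0.18) and activity-induced genes in 25 of 29 (median 0.18). Choroid plexus markers were above 0 in 15 of 15 (median 2.41; sums 23.5 to 104 CPM untreated and 71.5 to 4226 treated), and hypothalamic markers in 2 of 15 (median -1.30; sums 10.3 to 157 and 6.43 to 23.4). Their part in the values of the peptide genes was not tested. Nlrp3, and Nfkb1, which encodes a subunit of NF-κB and was chosen here to stand for it, did not pass the test in either treatment comparison: in old mice Nfkb1 was -0.09 ± 0.092 and Nlrp3 0.16 ± 0.29 (limma adjusted p = 0.816 and 0.897), and in APP/PS1 mice they were -0.06 ± 0.11 and 0.00 ± 0.33 (limma adjusted p = 0.997 and 0.9995).

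The responses of females and males were compared by their interaction, and no gene of the 31 passed in any comparison, nor did any other gene tested. The difference of females minus males had an unadjusted p under 0.05 for 5 of 31 genes with age (4.39% of all genes), 5 with treatment in old mice (4.71%), 4 in APP/PS1 mice (5.1%) and 5 with treatment in APP/PS1 mice (4.52%). Pcsk1 was among them in both comparisons of the aging arm: its age estimate was 0.19 ± 0.18 in females and -0.82 ± 0.18 in males, and its treatment estimate in old mice -0.10 ± 0.22 and 0.89 ± 0.22, and these comparisons share the old libraries. In APP/PS1 mice Vgf was 0.39 ± 0.10 in females and 0.37 ± 0.10 in males, and Adcyap1 1.15 ± 0.30 and 0.87 ± 0.30. With treatment of APP/PS1 mice, where 2 treated females remain, Adcyap1 was -1.13 ± 0.37 in females and 0.30 ± 0.33 in males, a difference of -1.43 ± 0.50 (limma adjusted p = 0.924). Several libraries that stood apart fell in a single sex: young males 1 and 2 and old male 3, and APP/PS1 females 1 and 3. Pcsk1 was at 21.01, 17.68 and 12.98 CPM in young males 1 to 3 and at 10.89, 8.36 and 9.06 in old males. Adcyap1 was at 21.89, 15.45 and 18.41 CPM in untreated APP/PS1 females 1 to 3. Treated APP/PS1 females 1 and 2 were at 6.16 and 11.2. Estimates by sex without the libraries that stood apart are not given, so their part was not tested.

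The 2 arms share no library, so the effect of age could be set against that of the transgenes in a joint fit. Of the 31 genes 6 had an unadjusted p under 0.05 for this difference, against 11.8% of all genes in either direction. Each of the 6 had a lower estimate for age. None of the 31 passed, where 7 of the 16300 genes tested did. Vgf differed by -0.52 ± 0.12 (limma adjusted p = 0.172) and Adcyap1 by -1.80 ± 0.51 (limma adjusted p = 0.224), and the others were Trh, Tac1, Pcsk1 and Pam. Treatment in old mice minus treatment in APP/PS1 mice had 1 such gene, Adcyap1 at 1.19 ± 0.53 (limma adjusted p = 0.918), against 4.35% of all genes. None of the 15990 genes tested passed there. Trh and Tac1 were at 47.2 and 22.6 CPM in young male 1 and at 63.2 and 95.7 in APP/PS1 female 1. The joint fits were not repeated without these libraries, so their part was not tested.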

How the data were processed

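The deposited values are normalized counts, a signal the authors scaled by library size factors within each of 4 tables of 12 libraries. STAR, DESeq2 and mm10 are named in the submitters' processing notes without versions; no source used here names the counting tool or annotation. Whole reads were recovered (100% of values within 0.001 of a whole number), and 12 libraries stand in 2 tables with identical reads. CPM scales recovered reads to 1000000 per library, and lengths are from GENCODE M21 (GRCm38).

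limma 3.58.1 in R 4.3.3 was fitted with an intensity trend, sex and group, within each table, to log2(normalized count + 1), for genes whose mean reached 10, with Benjamini-Hochberg adjustment over all genes and a threshold of 0.05. Alternatives were edgeR 4.0.16, DESeq2 1.42.0, other scalings, filters, weights, covariates and libraries left out. The limma fits were also run on simulated counts, drawn independently for each gene. These counts held no shift shared by many genes of a library, so they do not bear on libraries such as APP/PS1 female 1. The 31 genes and 12 companion lists were chosen with earlier results of these data known. Levels are given for the 3 genes with the smallest p in each comparison, mostly as the lowest, median and highest library of a group. Companion genes are named by smallest p. Same-numbered replicates correlated at -0.25 to 0.29, so the numbers do not pair samples.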

Additional observations from a re-analysis of the deposited data

Results flagged for a closer look

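Within each group the highest and lowest library were compared with the rest for every gene on log2(normalized count + 1), and a library was singled out where its gap to the next library, divided by the range of the group, exceeded Dixon's 95% critical value. This held for 39 of 186 gene and group pairs, where chance gives about 1 in 20, or 9.3. The levels below are in CPM.

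APP/PS1 female 1 gave 12 of them. It was the highest of its group for Cartpt (33.9 CPM), Avp (240.2), Pdyn (106), Tac1 (95.7), Tac2 (23.8) and Scg2 (686), and the lowest for Vip (5.05), Cck (30.1), Scg3 (292), Chgb (345), Grp (1.103) and Crhbp (3.28).

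Young male 1 gave 10. It was highest for Cartpt (32.4 CPM), Gal (12.5), Tac2 (31.03), Scg2 (527), Chga (297) and Pcsk1n (1423), and lowest for Sst (173), Cck (150.3), Cort (2.06) and Crhbp (7.18). Young male 2 was highest for Pcsk2 (497).

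Old male 3 was the highest old library for Cartpt (12.997 CPM), Pdyn (24.96), Npy (123), Tac1 (21.8) and Scg5 (172). Treated old female 3 was highest for Avp (13.9) and Tac1 (55.3) and lowest for Chgb (434) and Grp (3.499), and treated old male 1 was highest for Scg3 (418) and lowest for Nmb (0.925).

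Littermate female 1 was highest for Cck (406 CPM) and Pnoc (14.9), littermate female 3 for Scg2 (260.4) and Scg5 (339), and treated APP/PS1 male 1 for Crh (4.95).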

How the results depend on the processing

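The 13 estimates followed were those of the 3 genes with the smallest p in each comparison, and of Npy in APP/PS1 mice. They were picked from these same data, so their direction in other settings is no independent support. All 13 kept their direction over 28 alternative settings each. Avp, Cck and Cort, which were not followed, turned in APP/PS1 mice without female 1. Vgf in APP/PS1 mice ranged from 0.34 to 0.44, Adcyap1 from 0.85 to 1.17 and Npy from 0.48 to 1.38 on the log2 scale. These 3 passed the test in 6, 3 and 5 settings, and the other 10 in none. In APP/PS1 mice the 31 genes gave 0 calls as reported, 5 without both female 1 and 3 (chosen after seeing the data), 2 by DESeq2, 3 with library weights, and, with covariates also chosen later, 1 with the hippocampal and 2 with the hypothalamic score; leaving out single libraries gave 0 to 2. All genes called there numbered 8 as reported, 906 without both females, 3 with scores of 3 other regions, 256 by DESeq2, 19 with the GABAergic score, 24 with the hypothalamic score, 548 with library weights, and 6 to 256 with single libraries left out (21 without female 1, 256 without female 3). In old against young mice 6 genes were called as reported, 1 with the 3 region scores, 123 by DESeq2, 14 with weights and 4 to 11 with single libraries left out (11 without old female 1). DESeq2 called 2 genes in treated old mice and 7 in treated APP/PS1 mice, where dropping the expression filter gave 1; both were 0 as reported. With the replicate number as a block, 1 gene was called in old against young mice and none of the 31 in any comparison; the numbers do not pair the samples. The cause of these changes was not tested. With the low-depth library kept, the median of the 31 genes in treated APP/PS1 mice was -1.46 and that of all genes -0.68. Low counts limit Gal, Oxt and Avp, whose medians lay below 1 CPM.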

Other observations

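Scg5, the gene of the convertase chaperone 7B2, fell into separate levels in the transgenic arm, a pattern singled out after its values were seen. Of 17 libraries, 6 lay at 242 to 339 CPM (littermate female 3, APP/PS1 female 1 and male 3, and treated APP/PS1 female 2, male 1 and male 3) and the other 11 at 113 to 168. Of 14707 genes with a mean of at least 1 CPM, 3 others had the same 6 libraries highest: Pla2g4e (32.8 to 51.2 CPM against 7.63 to 20.2), Nop10 (23.3 to 30.1 against 16.7 to 21.5) and Zfp109 (5.88 to 9.17 against 2.70 to 5.69). In GRCm38, Scg5 lies on chromosome 2 (113776362 to 113829121), and so do Nop10 (112261926 to 112263269) and Pla2g4e (120166412 to 120245335), while Zfp109 lies on chromosome 7. Chromosome 2 holds 7.71% of the genes compared. The libraries came from all 3 groups of the arm.

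The low-depth library, treated APP/PS1 female 3, had Pnoc at 304 CPM, Oxt at 175, Tac2 at 129 and Nts at 35.04, above the 32.2, 119, 31.03 and 21.8 CPM of the highest other library, with 0.913 M reads in all.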
